A study of Drosophila melanogaster with 6 samples.

Results

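The 8 genes described here encode the lipid regulator SREBP, the factors that release it from membranes and enzymes of fatty acid synthesis. They are SREBP, SCAP, S2P, ATPCL, AcCoAS, ACC, FASN1 and Desat1, taken by name from 11982 genes that have a probe set assigned to that gene alone. All 8 had such a probe set, and each had only 1, so no choice between probe sets was needed. The measurements come from Drosophila S2 cells, an embryo-derived line with features of blood cells, exposed for 2 h either to the aldehyde PA (protocatechuic aldehyde) at 0.1 mM, on 3 arrays, or to its vehicle, also on 3 arrays. The labels do not describe the vehicle, which for S2 cells in another assay of the study was dimethyl sulphoxide (DMSO). Both groups were grown in Schneider's medium with insulin and fetal bovine serum. Total RNA of each sample was hybridised to 1 Affymetrix array, and the values are MAS5 signals, linear intensities in arbitrary units. The study used the arrays to look for genes that respond to PA.

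SREBP is a transcription factor made as a precursor in the membrane of the endoplasmic reticulum. SCAP escorts it to the Golgi, where the site-1 protease and then the site-2 protease (S2P) cut it, and the freed part enters the nucleus and activates genes of fatty acid synthesis. In Drosophila cells this cleavage is restrained by phosphatidylethanolamine and not by sterols, which flies cannot make. The arrays measure transcripts, not the cleavage of the precursor.

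Of the 8 genes, SREBP alone passed the test, 1.12-fold higher with PA, and the transcripts of its escort, its protease and the enzymes downstream did not. The SREBP call was lost in 9 of 20 alternatives, among them quantile normalization and median centring, where the log2 change was 0.10 and 0.08 in place of 0.16 (adjusted p = 0.131 and 0.8). With median centring its standard error was also larger, 0.09 in place of 0.04. Over all probe sets, 2.29% were called higher and 2.82% lower with PA (limma, adjusted p under 0.05). Among the 25% of probe sets with the highest mean signal, where 7 of the 8 genes lie, 8.35% were called higher and 8.54% lower. A count of 1 in 7 bright genes is near that background and does not set the group apart. The median log2 change of the 8 genes was -0.002, against -0.01 for all tested probe sets.

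The SREBP signal was 5854, 5747 and 5617 on the PA arrays, against 5000, 5120 and 5314 on the vehicle arrays. Every PA array exceeded every vehicle array, which 9.61% of all probe sets also did. In the 1% band of mean signal around SREBP, 81 of the 187 probe sets, SREBP among them, did so. The mean was 5739 ± 119 with PA and 5145 ± 158 with vehicle (SD, n = 3 each). This is a log2 change of 0.16 (standard error, SE, 0.04; limma adjusted p = 0.0215), and the 95% interval of the fold ran from 1.06 to 1.18. An exact permutation test of the 3 arrays against 3 gave p = 0.1 (two-sided), the smallest value this design allows. In such bulk RNA, a change in the number of expressing cells and a change in RNA per cell cannot be told apart.

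**Figure D1:**
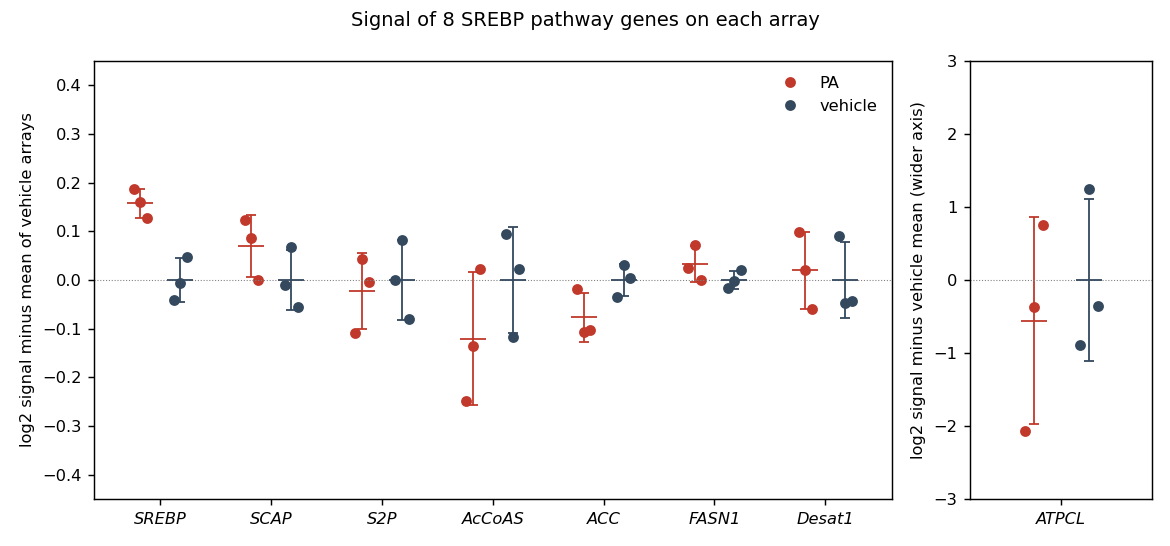
Log2 signal of each gene on each array, less the mean of its vehicle arrays (vertical axis), for PA and vehicle arrays; points are arrays, bars the mean ± SD of 3. The groups separate for SREBP only, and ATPCL, with signals of 2.72 to 26.9, needs a wider axis.

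Other probe sets as bright as SREBP also tended to be higher with PA. SREBP lay at percentile 97.0 of mean signal. In its 1% band of mean signal, which holds 187 probe sets, the median log2 change was 0.06 (quartiles 0.01 and 0.11). In that band 25 probe sets (13.4%) were called higher and 4 lower, and 18 had a larger change than SREBP. Relative to the band's median, SREBP was higher by 0.10 on the log2 scale. After quantile normalization, which removes such a dependence on signal, its log2 change was 0.10 (adjusted p = 0.131), and with cyclic loess it was 0.12 (adjusted p = 0.077). The direction held under every scaling tried, but the call did not.

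The call of SREBP also depended on single arrays. It was lost without PA replicate 1 (adjusted p = 0.0905), PA replicate 2 (0.0873), vehicle replicate 1 (0.0758) or vehicle replicate 2 (0.0773). It was kept without PA replicate 3 (0.049) or vehicle replicate 3 (0.0188). Without a trend of the variance on signal the adjusted p was 0.525. The log2 change itself stayed between 0.14 and 0.18 when any array was left out.

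**Figure D2:**
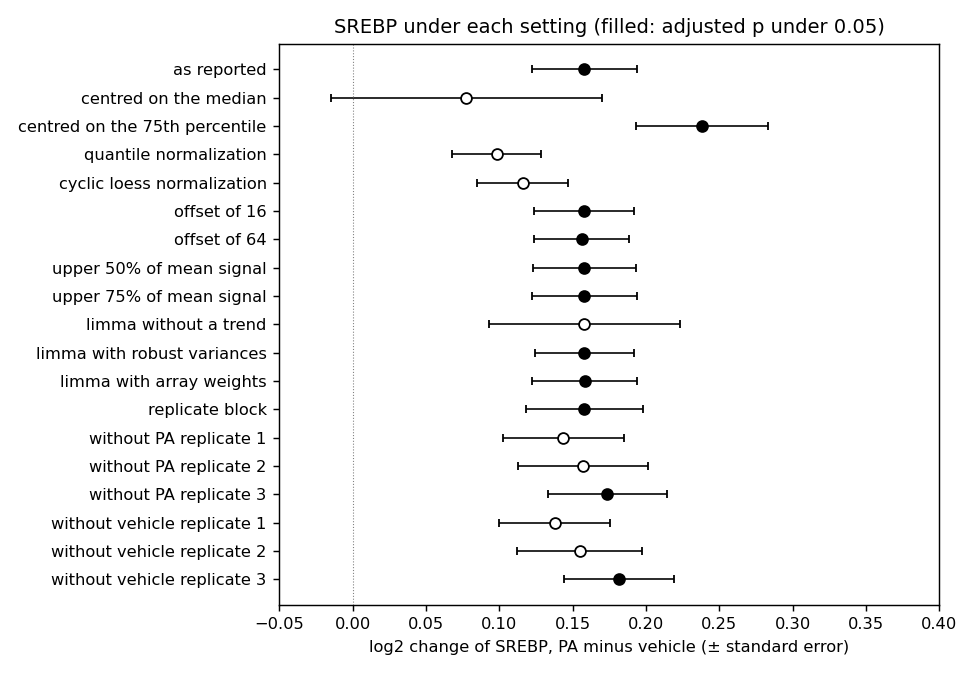
Log2 change of SREBP, PA minus vehicle (horizontal axis, ± standard error), as reported and under 18 other settings; filled points have an adjusted p under 0.05. Every point is above 0, from 0.08 with arrays centred on their median to 0.24 with arrays centred on their 75th percentile.

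SCAP, the escort protein, had signals of 1635, 1594 and 1500 with PA, against 1489, 1572 and 1443 with vehicle. The groups overlapped, and the log2 change of 0.07 (SE 0.05, adjusted p = 0.545) did not pass the test. Its 95% interval reached from 0.98-fold to 1.13-fold. For S2P, the protease of the second cut, the signals were 1090, 1210 and 1172 with PA, against 1174, 1243 and 1111 with vehicle. Here too the groups overlapped, with a log2 change of -0.02 (adjusted p = 0.905) and an interval from 0.91-fold to 1.07-fold. With 3 arrays a group, failing the test does not exclude a change within these intervals. That of SCAP holds the 1.12-fold change called for SREBP.

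Acetyl-CoA, the building block of fatty acids, is made in the cytosol from citrate by ATP citrate lyase (ATPCL) and from acetate by acetyl-CoA synthetase (AcCoAS). The ATPCL probe set had signals of only 2.72, 8.79 and 19.2 with PA, against 6.12, 26.9 and 8.89 with vehicle. It was the 1 gene of the 8 in the lower 50% of mean signal, at percentile 38.0. Its log2 change of -0.56 had a SE of 0.90 and an interval from 0.18-fold to 2.61-fold, so wide that it holds both a fall and a rise of more than 2-fold. Detection calls were not analysed here, and such a low signal does not show that the transcript is absent.

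AcCoAS had signals of 2474, 2675 and 2989 with PA, against 3139, 2710 and 2989 with vehicle. The PA arrays spread more widely than those of the other bright genes, with a log2 SD of 0.14 (n = 3), and the highest of them lay among the vehicle arrays. The log2 change was -0.12 (SE 0.07, adjusted p = 0.391), with an interval from 0.83-fold to 1.01-fold. AcCoAS kept this negative sign under all 20 alternatives, without being called in any.

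ACC, acetyl-CoA carboxylase, makes malonyl-CoA in the committed step of the pathway. Its signals were 1614, 1518 and 1523 with PA, against 1596, 1672 and 1639 with vehicle. Of the PA arrays, replicates 2 and 3 lay below all vehicle arrays, and replicate 1 lay among them. The log2 change of -0.08 (SE 0.04, adjusted p = 0.424) did not pass, with an interval from 0.89-fold to 1.01-fold.

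FASN1, the fatty acid synthase that extends acyl chains with malonyl-CoA, had signals of 9770, 10094 and 9602 with PA, against 9488, 9588 and 9733 with vehicle. This was the most precisely measured of the 8 genes. Its log2 change was 0.03 (SE 0.03, adjusted p = 0.72), with an interval from 0.97-fold to 1.07-fold, or -0.04 to 0.10 on the log2 scale. This interval holds for 1 scaling only. The log2 change lay outside it after quantile normalization (-0.07) and with centring on the 75th percentile (0.11). Desat1, the desaturase that puts a double bond into the finished chain, had signals of 12287, 11634 and 11004 with PA, against 12208, 11109 and 11131 with vehicle. The highest array of each group was replicate 1, and the groups overlapped almost fully. Its log2 change was 0.02 (SE 0.05, adjusted p = 0.903), with an interval from 0.95-fold to 1.09-fold.

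**Figure D3:**
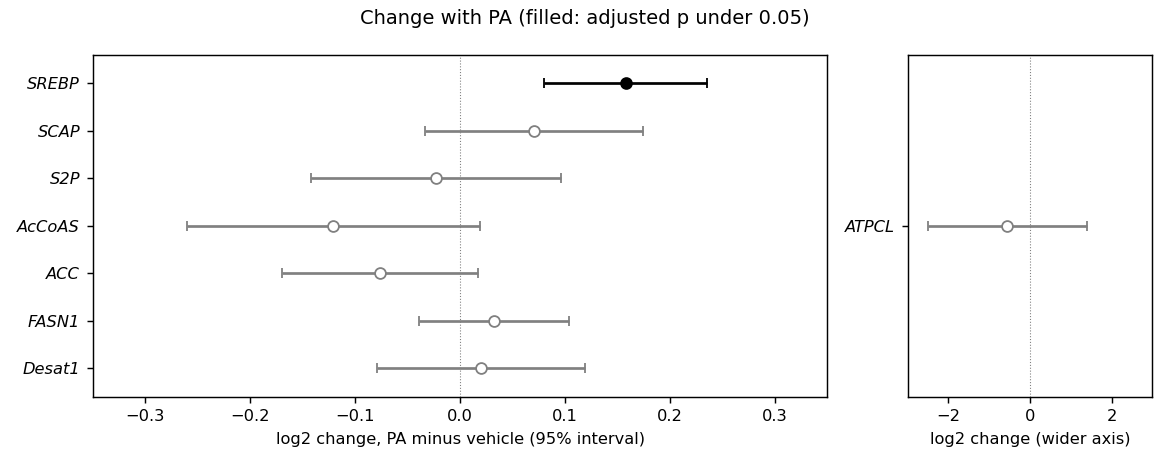
Log2 change of each gene, PA minus vehicle (horizontal axis), with its 95% interval from limma; the filled point, SREBP at 0.16, has an adjusted p under 0.05. The intervals of the other 7 genes include 0, and that of ATPCL, on a wider axis, runs from -2.50 to 1.39.

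FASN1 and Desat1 are among the brightest probe sets of the array, and there most signals were higher with PA. In the 1% band of Desat1, 123 of 188 probe sets were called higher, 0 were called lower, and the median log2 change was 0.15. Desat1, at 0.02, had a smaller change than 184 of the 188. In the band of FASN1 the median was 0.11 and 62 of 188 were called higher, while FASN1 was at 0.03. After quantile normalization the log2 changes were -0.07 for FASN1 (adjusted p = 0.29) and -0.09 for Desat1 (adjusted p = 0.518), so neither was called on that scale either. At lower signal, ACC (-0.08) and S2P (-0.02) lay within the quartiles of their bands, which were -0.10 to 0.04 and -0.13 to 0.03. SCAP, at 0.07, lay above its band's upper quartile of 0.04, and AcCoAS, at -0.12, below its lower quartile of -0.09. The part of this dependence on signal in the values of single genes was not tested beyond the quantile and cyclic loess settings.

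**Figure D4:**
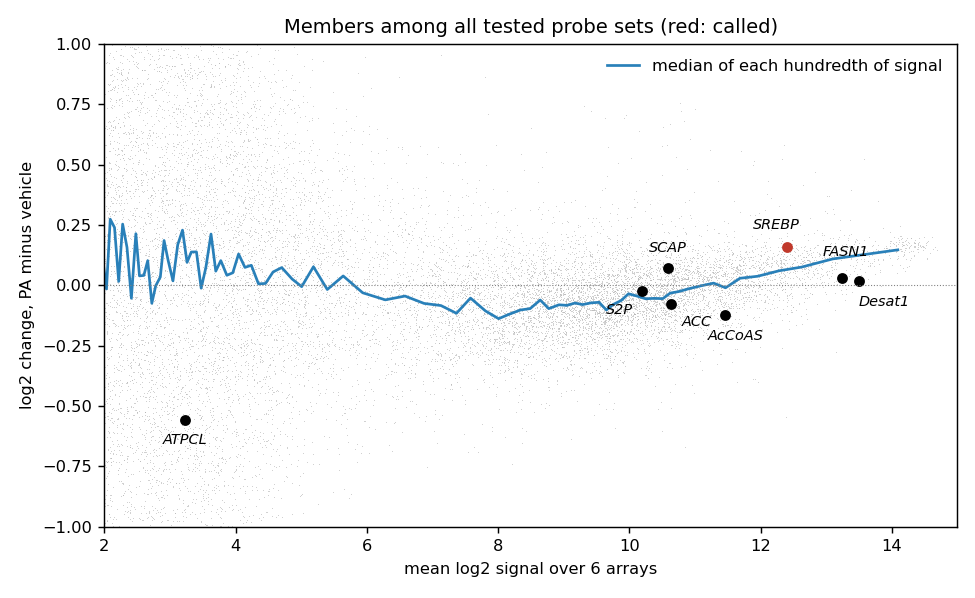
Log2 change, PA minus vehicle, against mean log2 signal over the 6 arrays, for all tested probe sets (grey), with the 8 genes marked (SREBP, called, in red) and the median of each 1% band of signal as a line; mean log2 signals under 2 and changes beyond -1 and 1 are not shown. The line climbs to 0.15 at the bright end, where SREBP lies above it and FASN1 and Desat1 below it.

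The sign of a small change depended on how the arrays were scaled. Only SREBP, ATPCL and AcCoAS kept their sign when arrays were centred on the median or the 75th percentile or normalized by quantiles or cyclic loess. SCAP turned negative with median centring (-0.01), and ACC turned positive with centring on the 75th percentile (0.004). S2P turned positive under 3 of these scalings, and FASN1 and Desat1 turned negative under 3. Both centrings move every probe set by the same amount, -0.08 for the median and 0.08 for the 75th percentile. The array medians were dim signals of 20.7 to 24.8, against 75th percentiles of 491 to 533. Median centring therefore ties bright genes to noisy dim probe sets. After quantile normalization and cyclic loess SCAP kept its sign, with 0.11 and 0.10, and so did ACC, with -0.04 and -0.05. SCAP, ACC, S2P, FASN1 and Desat1 were not called under any of the 4 scalings.

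A ratio of 2 genes within 1 array does not move when the whole array is rescaled by a factor. SREBP was therefore set against each of the other 6 bright genes on the same array, a comparison added after the values were seen. Relative to ACC, the log2 ratio was higher by 0.23 on the PA than on the vehicle arrays, and relative to FASN1 by 0.13, in both cases with no overlap of the groups. Relative to AcCoAS, S2P, Desat1 and SCAP the differences were 0.28, 0.18, 0.14 and 0.09, and the groups overlapped. The exact permutation p was 0.1 for ACC and FASN1 (two-sided, the smallest possible) and 0.2 or 0.3 for the others, or 0.24 and 0.3 after adjustment over the 6 comparisons. All 6 share the SREBP values and are not independent. Their positive sign was fixed in advance, because SREBP had the highest log2 change of the 8 genes. A ratio also does not remove the dependence of the change on signal. The median log2 change of the 1% band was 0.06 for SREBP, -0.03 for ACC and 0.11 for FASN1.

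Beyond the 8 genes, 7 lists of lipid genes were drawn up, with 97 entries. Of these, 78 had a probe set of their own, and 50 of the 78 lay in the brightest 25% of probe sets. With PA, 2 of the 78 rose and 3 fell. These shares, 2.56% and 3.85%, are near the 2.29% and 2.82% of all probe sets. All of the called genes were among the 50 bright ones, so 2 and 3 of 50 stand beside 8.35% and 8.54% of bright probe sets. The median log2 change over the 78 genes was -0.03. In all, 13 of the 78 had every PA array above every vehicle array and 12 had every PA array below, against 9.61% and 11.9% of all probe sets. Such separation, in either direction, was more common among bright probe sets. It was found for 44.8% of the brightest 25%, where 50 of the 78 genes lie, against 21.5% of all probe sets. An unadjusted p under 0.05 was found for 20 of the 78, against 17% of all probe sets and 42.1% of the brightest 25%.

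Machinery that carries SREBP or acts on it or its precursor did not pass the test in any of 7 measured genes. Their log2 changes ran from -0.11 to 0.05, and 1 had an unadjusted p under 0.05. The COPII coat carries the complex of SCAP and SREBP out of the endoplasmic reticulum. Its outer coat subunit Sec13 had a mean signal of 2818 ± 49.1 with PA and 2995 ± 91.5 with vehicle (SD, n = 3 each), with no overlap of the arrays (log2 change -0.09, adjusted p = 0.251). Sec31, the partner of Sec13, had a log2 change of 0.05 (adjusted p = 0.568), and the cargo adaptors Sec24AB and Sec24CD had -0.09 and -0.11 (adjusted p = 0.451 and 0.545). S1P, the protease of the first cut, had a mean signal of 412 ± 20.4 with PA and 423 ± 9.66 with vehicle (SD, n = 3 each), and its log2 change was -0.04 (adjusted p = 0.858).

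Supply of cofactors and reducing power, in 7 measured genes, also gave no call (2 had an unadjusted p under 0.05). The coenzyme A enzymes Ppcs and fbl, the fly pantothenate kinase, had log2 changes of -0.22 and -0.16 (adjusted p = 0.146 and 0.209), with all PA arrays below all vehicle arrays for both. The NADPH-producing enzymes Men (malic enzyme) and Idh had -0.10 and 0.05 (adjusted p = 0.37 and 0.461).

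None of 17 measured genes that elongate, desaturate or activate acyl chains was called by limma, and 0 had an unadjusted p under 0.05. Only 9 of the 17 lay in the upper 50% of signal. Sc2, an enoyl-CoA reductase of chain elongation, had signals of 3441, 3426 and 3462 with PA, against 3289, 3305 and 3308 with vehicle. These did not overlap, but its log2 change of 0.06 had an adjusted p of 0.414. The fatty acid synthase paralogue FASN3 averaged 5.56 ± 3.74 with PA and 10.2 ± 2.90 with vehicle (SD, n = 3 each). It lay in the lower 50% of mean signal, as did Elo68alpha, an elongase, and Fatp2, with an SE of 0.998 and 0.897 for their log2 changes.

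Phosphatidylethanolamine is built from ethanolamine through ethanolamine kinase, encoded by eas, and the next enzyme of the route, Pect. In S2 cells treated with PA, eas fell, with signals of 2509, 2282 and 2328, against 2783, 2803 and 2639 with vehicle. All PA arrays were below all vehicle arrays, and the log2 change was -0.21 (SE 0.04, adjusted p = 0.0157). The call of eas was kept after quantile normalization (adjusted p = 0.0196) but lost with arrays centred on their median (0.0779) or 75th percentile (0.149), with an offset of 64 (0.0513), without a trend (0.497) and without any 1 of PA replicates 2 and 3 and vehicle replicates 1 and 2 (0.0568 to 0.083). Pect had signals of 6190, 6000 and 5725 with PA, against 6330, 6805 and 6473 with vehicle, again without overlap. Its log2 change of -0.13 (SE 0.04) missed the threshold, with an adjusted p of 0.0849. The phospholipid synthesis gene bbc went the other way, at 0.14 (SE 0.05, adjusted p = 0.101), with every PA array above every vehicle array.

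These were part of 17 measured genes of glycerolipid and phospholipid synthesis, of which 1 fell and 16 did not pass (6 of the 17 had an unadjusted p under 0.05). Every PA array was above every vehicle array for 4 of the 17, and below for 3. Gpat4, an acyltransferase that starts glycerolipid synthesis, averaged 2501 ± 26.4 with PA and 2245 ± 121 with vehicle (SD, n = 3 each), with a log2 change of 0.16 and an adjusted p of 0.0578. The diacylglycerol acyltransferase gene mdy (midway), which makes the storage fat, had a log2 change of -0.22 (adjusted p = 0.089). The arrays of both genes did not overlap between PA and vehicle.

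Of 11 measured genes of lipid storage, lipolysis and beta-oxidation, 1 rose and 1 fell, and 4 had an unadjusted p under 0.05. The lipase gene bmm (brummer), which breaks down stored fat, had signals of 619, 612 and 557 with PA, against 861, 785 and 699 with vehicle. Its log2 change was -0.39 (SE 0.07, adjusted p = 0.00879), a fall that left the groups without overlap, and it was called under every scaling (adjusted p from 0.00854 to 0.0292). The call was lost without PA replicate 3 (0.0522), with an offset of 64 (0.0529) and without a trend (0.423). Lsd-1, a perilipin that coats lipid droplets, had signals of 592, 615 and 640 with PA, against 540, 538 and 507 with vehicle. Its rise of 0.22 (SE 0.06, adjusted p = 0.0487) was just inside the threshold. It was called after quantile normalization (0.0157) but not with arrays centred on their median (0.478) or when any 1 array was left out (0.0675 to 0.168). For whd, the carnitine palmitoyltransferase that brings fatty acids into mitochondria, the log2 change was -0.30 (adjusted p = 0.0914), and for the droplet protein Jabba it was 0.15 (adjusted p = 0.242).

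Among 14 measured regulators, 1 rose and 1 fell, and 5 had an unadjusted p under 0.05. SNF4Agamma, the gamma subunit of AMP-activated protein kinase, which phosphorylates and inhibits acetyl-CoA carboxylase, averaged 1005 ± 43.7 with PA and 623 ± 36.4 with vehicle (SD, n = 3 each). Its log2 change of 0.69 (SE 0.06, adjusted p = 1.04e-05) was larger than that of each of the 8 genes. The catalytic subunit AMPKalpha had a log2 change of 0.07 (adjusted p = 0.637). Crtc, a coactivator of CREB, fell to 588 ± 29.1 with PA, against 706 ± 16.5 with vehicle (SD, n = 3 each), by 0.26 on the log2 scale (adjusted p = 0.0172, or 0.0985 after quantile normalization). Without PA replicate 3 or vehicle replicate 1 or 2 its adjusted p was 0.0745, 0.0685 or 0.0515. The Mediator subunit gene skd had -0.19 (adjusted p = 0.0688), while its second probe set had -0.34 (adjusted p = 0.0287). The gene bigmax, whose product pairs with the sugar sensor Mondo, had 0.23 (adjusted p = 0.103).

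Mitochondria hold a separate pathway of fatty acid synthesis that feeds lipoate production. None of its 5 measured genes was called by limma, and 2 had an unadjusted p under 0.05. ND-ACP, the acyl carrier protein, had a log2 change of 0.09 (adjusted p = 0.139), CG12170 had -0.13 (0.244), the lipoate synthase gene Las had -0.08 (0.467) and the lipoyl transferase gene Lipt2 had 0.06 (0.628). These 4 were named for the smallest p of their list, and their PA and vehicle arrays did not overlap, as was the case for 21.5% of all probe sets and 44.8% of the brightest 25%. Other probe sets of ND-ACP had larger log2 changes of 0.14 and 0.12 (adjusted p = 0.0777 and 0.0888). Another probe set of Las had -0.14 (adjusted p = 0.169).

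**Figure D5:**
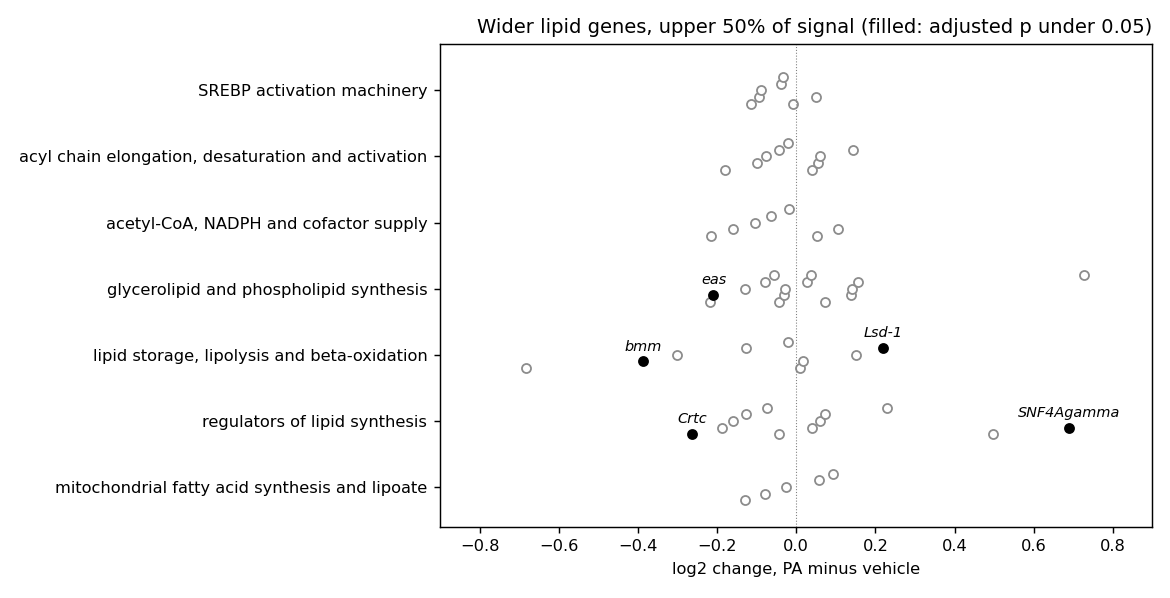
Log2 change, PA minus vehicle (horizontal axis), of the genes of 7 lipid lists that lie in the upper 50% of signal (64 of 78); filled, named points have an adjusted p under 0.05. The called genes are SNF4Agamma (0.69) and Lsd-1 (0.22) on the higher side and bmm (-0.39), Crtc (-0.26) and eas (-0.21) on the lower side.

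The labelled cell type was checked against its markers. All 9 listed markers of plasmatocytes, the blood cells that S2 cells resemble, were in the upper 50% of signal. By that cutoff 1 of 4 fat body, 1 of 2 oenocyte, 2 of 3 neuron and 1 of 2 germline markers also passed. The neuronal elav, at percentile 66.0, was brighter than the lowest plasmatocyte marker, Pxn, at 65.0. Of 14 measured markers of fat body, oenocytes, muscle, neurons and germline, none lay above percentile 66.0 and none was called by limma (0 with an unadjusted p under 0.05). Fat body and oenocytes, where flies make much of their fat, had summed marker signals of 35.4 to 65.8 and 18.1 to 43.5 on the PA arrays, against 37.0 to 87.1 and 26.2 to 35.5 on the vehicle arrays. For the plasmatocyte markers the sums were 36416 to 38340 with PA and 35713 to 36902 with vehicle. Of these 9 markers 3 were called. Hml and NimC1 rose by 0.14 and 0.15 and srp fell by 0.15 on the log2 scale (adjusted p = 0.0427, 0.0254 and 0.0467), changes of about the size seen for SREBP. Among the brightest 25% of probe sets, 8.35% were called higher and 8.54% lower. Hml lay in the 1% band of Desat1, where the median log2 change was 0.15 and 123 of 188 probe sets were called higher. The band's median was 0.06 for NimC1 and 0.08 for srp. The part of these markers in the change of SREBP was not tested.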

How the data were processed

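The authors profiled 6 samples of S2 cells (3 PA, 3 vehicle) on Affymetrix Drosophila 2.0 arrays, 1 array each, and deposited each probe set's MAS5 signal, an intensity on a linear scale. The MAS5 version and a genome build are not given in the sources used here, and no positions are printed. The mean of each array, trimmed by 2% at each end, was 500, so no further scaling was applied. After removal of 183 control probe sets, log2 signals of 18769 probe sets, with no offset, were tested with limma 3.58.1 in R 4.3.3 (lmFit, eBayes with a trend, PA minus vehicle) and Benjamini-Hochberg adjustment over all of them. Every adjusted p comes from this fit unless another test is named. Exact permutation tests used scipy 1.17.1 in Python 3.11.15. The platform annotation, updated to current symbols by gene identifier, assigned 13646 probe sets to 1 gene, 402 to several and 4721 to none. The brightest probe set represented a gene.

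The 8 genes are all described, and from each wider list up to 4 genes with the smallest p, with a few more named after their values were seen (S1P, AMPKalpha, bbc and marker genes). Members and lists were chosen with earlier results of these data known. The alternatives were 4 scalings, offsets of 16 and 64, 2 filters on signal, other variance models, the replicate block, the methods' t-test and leaving out each array. The comparison by 1% bands of signal and the ratios within arrays were added after the data were seen. Whether the 3 cultures of a group were separate is not stated, so a p-value reflects no more than how far these arrays vary, possibly for technical reasons, and the number of arrays limits the precision. The numbers 1 to 3 in the labels were not used to pair arrays, since the methods name no block. Deviations of equally numbered arrays from their group means were uncorrelated over all probe sets (r = -0.001, 0.019 and -0.002). That check cannot decide whether cultures were paired, because noisy dim probe sets weigh most in it. The median SE of the log2 change was 0.83 in the dimmest 10% of probe sets and 0.04 in the brightest 10%. No sequences are shown, as no sequence table was used here.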

Additional observations from a re-analysis of the deposited data

How the results depend on the processing

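SREBP kept its positive sign under all 20 alternatives and its call under 11 of them. These 11 include the methods' t-test by its unadjusted p of 0.00685, which was 0.165 after adjustment. They also include the replicate block (log2 change 0.16, adjusted p = 0.0393). Lsd-1 lost its call with that block (adjusted p = 0.0727), the other 4 called lipid genes kept theirs, and bigmax gained one (adjusted p = 0.0411, against 0.103 as reported). The replicate numbers mark no known pairing. The number of the 8 genes called higher was 0 with median centring, quantile normalization, cyclic loess, no trend and the adjusted methods' t-test, and 0 to 1 when 1 array was left out. No setting called any of the 8 genes lower. Among the wider genes, 2 were called higher and 3 lower. The higher count was 1 with median centring, either offset or robust variances, 9 with 75th percentile centring or the unadjusted methods' t-test, 4 after quantile normalization, and 0 with no trend or the adjusted t-test. The lower count was 1 with 75th percentile centring or an offset of 64, 5 in the upper 50% of signal, 9 with the unadjusted t-test, and 0 with no trend or the adjusted t-test. Leaving out 1 array gave 1 to 2 higher and 0 to 4 lower.

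Changes of sign concerned values that were not called. With median centring the log2 change was -0.0104 for SCAP, -0.0483 for FASN1, -0.0609 for Desat1, -0.0316 for Sec31, -0.0198 for Sc2, -0.0272 for Idh and -0.0223 for Lipt2. With 75th percentile centring it was 0.0572 for S2P, 0.00358 for ACC and 0.00193 for Las. Quantile normalization gave 0.0247 for S2P, -0.0715 for FASN1, -0.0881 for Desat1, -0.0154 for Idh and -0.0131 for ND-ACP, and cyclic loess 0.0184, -0.0484 and -0.0733 for S2P, FASN1 and Desat1. With 1 array left out, S2P ranged from -0.0633 to 0.0197, Desat1 from -0.0199 to 0.0646 and ATPCL from -1.22 to 0.19. Over all probe sets, median centring gave 58 higher and 350 lower, 75th percentile centring 988 and 211, quantile normalization 238 and 266, cyclic loess 248 and 269, an offset of 16 270 and 383, an offset of 64 225 and 314, and no trend 7 and 0, against 429 and 529 as reported, and leaving out 1 array gave 196 to 402 higher and 262 to 412 lower. The causes were not tested.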
